A study of Homo sapiens with 16 samples.

Results

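Kinesins are motor proteins that move along microtubules, and centromere proteins (CENP) build the chromosomal platform to which the spindle attaches. All protein-coding genes whose symbols begin with KIF, KIFC or CENP followed by a number or letter were taken, provided that they were listed in all 4 of the authors' deposited comparison tables. This gave 61 genes of the 19344 genes listed in all 4 tables, out of 62 matching symbols, and KIF26B, listed in 3 tables, was the one left out. By known role they fell into 15 mitotic kinesins, 17 transport kinesins, 6 other kinesins, 16 inner centromere genes, 4 further CENP-named genes and 3 genes in no role list (KIF1BP, CENPBD1 and CENPVL3). CENPE, a kinetochore motor, was counted with the mitotic kinesins.

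The samples were U2OS cells, an established human osteosarcoma line, profiled by sequencing of poly(A) RNA. There were 4 groups of 4 libraries, 16 in all: siControl with DMSO, siControl with Nutlin-3a, siRFX7 with DMSO and siRFX7 with Nutlin-3a. siControl is a control siRNA and siRFX7 an siRNA against the transcription factor RFX7. All cells were therefore transfected with an siRNA, and all were exposed for 24 h to 10 µM Nutlin-3a or to its solvent. Nutlin-3a keeps MDM2 from binding p53, which stabilises p53. Every group came from this one cell line, and the labels do not say that the libraries came from separate cultures, so the p-values measure the spread between these libraries.

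Each deposited table compared 2 groups (8 libraries) and gave for each gene a base mean, a log2 fold change with its standard error (SE) and an adjusted p, but no value of a single library. A gene was called higher or lower when its deposited adjusted p, taken over all genes of the table, was under 0.05. Group levels were worked out from the base mean and the fold change and are in normalised counts. In bulk RNA of this kind, fewer cells in a given cell cycle stage and less RNA per cell cannot be told apart.

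Mitotic kinesins assemble the spindle, align and separate chromosomes and complete cytokinesis, and many of their genes are transcribed mainly in the late cell cycle. Transport kinesins carry vesicles and organelles and work through all of the cycle. The inner centromere genes encode the histone variant CENPA and the constitutive centromere-associated network built on it. When p53 is active it raises the CDK inhibitor p21, and the DREAM complex then represses cell cycle genes, many of which it reaches through a CHR element (cell cycle genes homology region, TTTGAA) in their promoters.

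RFX7 itself was lower with its siRNA in the authors' deposited tables, by -2.42 ± 0.07 (log2 ± SE) under DMSO and by -2.37 ± 0.07 under Nutlin-3a. CDKN1A, which encodes p21, rose with Nutlin-3a by 3.24 in siControl and 2.98 in siRFX7. Its level was higher with siRFX7 than with siControl under both treatments, by 0.60 ± 0.04 under DMSO and 0.33 ± 0.04 under Nutlin-3a. The smaller rise in siRFX7 thus began from a higher DMSO level. The base means of a table summed to between 27946376 and 35311111 counts, and the median log2 fold change over all genes lay between -0.01 and 0.01 in the 4 tables. Of 5 mesenchymal or bone markers, VIM, SPARC and COL1A1 were the most abundant, with base means of 84577, 31574 and 39039 in the siControl table, RUNX2 between 283 and 432, and COL1A2, a bone collagen gene, only 11.0 to 13.2. Of 7 markers of other cell types, KRT5, CD3E and ALB were in no table, PTPRC and PECAM1 were in 1 table each at base means of 5.21 and 2.66, and EPCAM and CDH1 lay between 121 and 214. EPCAM and CDH1 were higher with siRFX7 by 0.54 and 0.85 under DMSO and by 0.41 and 1.10 under Nutlin-3a, and their part in the results below was not tested.

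Promoter windows around this motif are shown for the 5 mitotic kinesins with the lowest values in siControl, for KIF4A and its retrocopy KIF4B, for CENPA and for the single transport kinesin that holds it. RefSeq promoters on GRCh38.p14, running from 250 bases before to 50 bases after the first listed start of a gene, were found for 49 of the 61 genes. The 12 genes without an entry were CENPBD1, CENPH, CENPJ, CENPL, CENPM, KIF13B, KIF1BP, KIF21B, KIF27, KIF5A, KIFC2 and KIFC3. TTTGAA, searched on both strands, was in 10 of 15 mitotic kinesin promoters (66.7%), in 4 of 13 of the inner centromere genes (30.8%) and in 1 of 12 of the transport kinesins (8.33%). It was in 15.4% of all 27305 promoters and in 12.1% of the 15843 promoters of protein-coding genes. The 30-base windows below are 5′ to 3′ on the strand of the gene, with the motif in capitals, and TTCAAA is the same motif on the other strand:
KIF15: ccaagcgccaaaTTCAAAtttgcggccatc
KIF11: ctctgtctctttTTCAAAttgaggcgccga
KIFC1: tggccgttggaaTTCAAAagtggcgggtgt
KIF18B: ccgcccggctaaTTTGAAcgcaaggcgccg
KIF23: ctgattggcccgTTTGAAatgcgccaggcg
KIF4A: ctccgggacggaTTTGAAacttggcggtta
KIF4B: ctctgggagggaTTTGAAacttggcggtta
CENPA: cggagcgagcgaTTTGAAcgcgagcggcgc
KIF5B: agtgcagtaaaaTTTGAAtctgcgaccccg

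These windows lie at chr3:44761747-44761776 (plus strand, KIF15), chr10:92593090-92593119 (plus, KIF11), chr6:33391815-33391844 (plus, KIFC1), chr17:44947754-44947783 (minus, KIF18B), chr15:69414282-69414311 (plus, KIF23), chrX:70290058-70290087 (plus, KIF4A), chr5:155013746-155013775 (plus, KIF4B), chr2:26786026-26786055 (plus, CENPA) and chr10:32056548-32056577 (minus, KIF5B). KIF4A and KIF4B, a gene and its retrocopy, had the same base at 28 of the 30 window positions. In the mitotic kinesins every match began between 55 bases before (position -55, KIF23) and 30 bases after the start (KIF20B). The single transport kinesin match, in KIF5B, began further upstream, at position -140. The CCAAT box (CCAAT, both strands) was in 11 of 15 mitotic kinesin promoters (73.3%), in 8 of 13 of the inner centromere genes (61.5%) and in 3 of 12 of the transport kinesins (25%). It was in 35.7% of all promoters and in 36.4% of those of protein-coding genes. The E2F-like letters TTCCCGC or TTGGCGC (both strands) did not follow that division between the lists, at 20%, 23.1% and 25% in the same order. They were in 9.33% of all promoters and in 12.3% of those of protein-coding genes. A match of this kind is a description of the letters and not of a bound site.

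With Nutlin-3a in siControl cells, transcripts of the mitotic kinesins and of the centromere fell together to between 46.8% (KIF15) and 86.7% (KIF2A) of their DMSO level, while most transport kinesins were not called lower. In the table that the authors deposited, 40 of the 61 genes were called lower, where 19.6% of all 23353 genes were, and 7 were called higher, where 18.3% of all genes were. All 15 mitotic kinesins were lower, with a median log2 fold change of -0.90 beside 0.01 over all genes. Of the 17 transport kinesins 2 were lower, 6 were higher and 9 were not called, with a median of 0.06. All 16 inner centromere genes were lower, with a median of -0.83. The mitotic median lay 0.96 below the transport median, a log2 difference of -0.96. When each test statistic was divided by its robust SD over genes of like base mean, a stricter null that true changes widen, 20 of the 61 genes stayed called lower (1.21% of all genes) and none higher (2.24% of all genes). Those 20 were 13 mitotic kinesins, 6 inner centromere genes and KIF24, so no transport kinesin stayed called in either direction.

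Within the mitotic kinesin list, KIF15 and KIF11 had the lowest values in the authors' deposited table for siControl, with others close behind. KIF15, which helps hold spindle poles apart, fell by 1.10 ± 0.05 (adjusted p = 5.33e-88). KIF11, the motor that slides antiparallel microtubules to separate the poles, had an implied level of 7377 normalised counts under DMSO and 3500 under Nutlin-3a, a log2 fold change of -1.08 ± 0.05 (adjusted p = 5.75e-120). KIFC1, a minus-end-directed motor that clusters poles, went from 6845.5 to 3454 normalised counts, a log2 fold change of -0.99 ± 0.04. KIF18B, which shortens astral microtubules, and KIF23, the motor subunit of centralspindlin at the midzone, changed by -0.98 ± 0.05 and -0.96 ± 0.04. The motors of the kinetochore and chromosome arms followed closely, with CENPE at -0.91 ± 0.06, KIF22 at -0.90 ± 0.05 and KIF18A at -0.89 ± 0.05. Apart from KIF2A, all 14 lay in the narrow range from -1.10 to -0.78, the upper end being KIF4A, a chromokinesin that also acts at the midzone.

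KIF2A, a microtubule depolymerase that also works outside mitosis, stood apart from the other mitotic kinesins with -0.21 ± 0.04 in the authors' deposited table for siControl (adjusted p = 5.84e-06). Its relative KIF2C, the depolymerase of the centromere also called MCAK, changed by -0.81 ± 0.04. KIF4B, the retrocopy of KIF4A, gave -0.89 ± 0.07 at a base mean of 800, and reads could have been shared between the pair, so its value is uncertain. The 10 mitotic kinesins with a TTTGAA match had a median of -0.93. The 5 without one in the promoter searched (CENPE, KIF20A, KIF22, KIF2A and KIF2C) had a median of -0.84. In siRFX7 these medians were close, at -1.05 with a match and -1.03 without one. Over all 49 genes with a promoter entry, 16 of 17 with a match were called lower in siControl (median -0.89), as were 19 of 32 without one (median -0.36). CENPVL3 was the gene with a match that was not called. The 17 genes with a match included 10 mitotic kinesins but 1 of the 12 transport kinesins with an entry. This split therefore cannot be told apart from list membership.

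**Figure D1:**
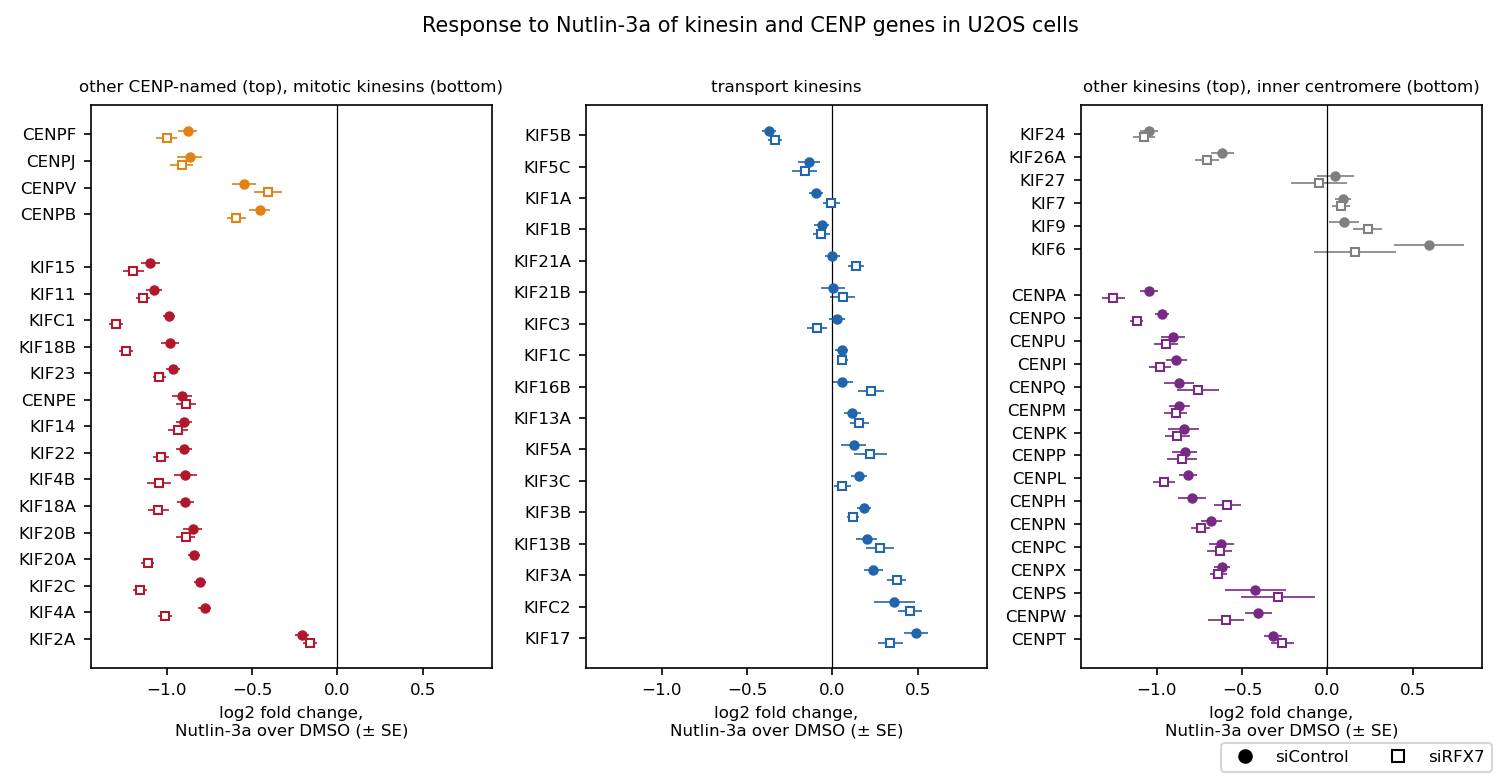
Log2 fold change of Nutlin-3a over DMSO (x axis, ± SE of the authors' tables, 4 libraries per group) for each gene (rows) in siControl (filled circles) and siRFX7 (open squares). The mitotic kinesins other than KIF2A lie between -1.30 and -0.78, whereas the transport kinesins scatter around 0, from -0.37 to 0.49.

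Transport kinesins went in both directions. KIF5B, the ubiquitous conventional kinesin heavy chain, was the clearest fall, from 11613 to 8981.5 normalised counts, a log2 fold change of -0.37 ± 0.04 (adjusted p = 6.76e-20) in the authors' deposited table for siControl. KIF1A, a carrier of synaptic vesicle precursors, was the other one called lower, at -0.10 ± 0.04 (adjusted p = 0.0439). KIF17, a motor of cilia and dendrites, was the highest: it went from 506 to 709 normalised counts, a log2 fold change of 0.49 ± 0.07 (adjusted p = 2.36e-11). KIF3A and KIF3B, which together form the kinesin-II motor of intraflagellar transport, were higher by 0.24 ± 0.06 and 0.19 ± 0.04. KIFC2 was higher by 0.36 ± 0.12, KIF13B by 0.20 ± 0.06 and KIF3C by 0.16 ± 0.05. KIF1B, KIF1C, KIF21A, KIF21B and KIFC3 lay between -0.06 and 0.05 and were not called. KIFC2 shares 17.8% of its exon length with FOXH1 on the opposite strand, and how the counting treated strand is not given in the sources used here.

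Among the inner centromere genes CENPA, the centromeric histone H3 variant, had the lowest value, with 1877 normalised counts under DMSO and 909 under Nutlin-3a in siControl (log2 fold change -1.05 ± 0.05, adjusted p = 1.45e-87, in the authors' deposited table). CENPO, CENPU and CENPQ, which belong to one subcomplex of the network, changed by -0.97 ± 0.04, -0.91 ± 0.07 and -0.87 ± 0.09, although CENPO shares 27.0% of its exon length with ADCY3 on the opposite strand. CENPH, CENPI, CENPK and CENPM, which form another, lay between -0.89 (CENPI) and -0.79 (CENPH). CENPC, the scaffold that links CENPA to the outer kinetochore, fell less, by 0.62 ± 0.08. CENPT and CENPW, which share a histone-fold complex with CENPS and CENPX, had the smallest values of the list, at -0.32 ± 0.05 and -0.40 ± 0.08. CENPS gave -0.42 ± 0.18 at a base mean of only 75.6, and 64.7% of its exon length is shared with the readthrough gene CENPS-CORT on the same strand, so its value is uncertain. CENPP, at -0.84 ± 0.07, shares 38.0% of its exon length with IPPK.

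The 4 further CENP-named genes were lower as well in the authors' deposited table for siControl. CENPF, a large kinetochore protein of late G2 and mitosis, changed by -0.88 ± 0.06, CENPJ, a centriole assembly factor, by -0.86 ± 0.07, CENPV by -0.55 ± 0.07 and CENPB, which binds alpha-satellite DNA, by -0.45 ± 0.06. Of the other kinesins, KIF24, which acts in centriole capping and cilium control, was as low as the mitotic motors at -1.05 ± 0.05, and KIF26A changed by -0.62 ± 0.07. KIF7, a regulator of Hedgehog signalling in cilia, was not called (0.09 ± 0.05). KIF6 was called higher by 0.60 ± 0.20 (adjusted p = 0.011), at a base mean of 55.1. KIF1BP, a kinesin-binding protein and not a motor, was lower by -0.32 ± 0.05.

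In siRFX7 cells the mitotic and centromere genes were again the ones most often lowered by Nutlin-3a. The authors' deposited table called 38 of the 61 genes lower, where 20.3% of 21382 genes were lower, and 9 higher, where 18.7% were higher. These 2 Nutlin-3a comparisons share no library, and 38 of the 40 genes called lower in siControl were among the 38 called lower in siRFX7. That is 62.3% of the 61 genes, where 17% of the genes in both tables were lower in both. The 2 others were KIF1A (-0.01 ± 0.05) and CENPS (-0.29 ± 0.21). All 15 mitotic kinesins were lower, with a median of -1.05, from -1.30 ± 0.04 for KIFC1 to -0.16 ± 0.04 for KIF2A. Of the transport kinesins 1 was lower (KIF5B, -0.34 ± 0.04) and 8 were higher, with a median of 0.12. KIF13B, KIF17, KIF3A, KIF3B and KIFC2 were higher in both siRNA groups, which is 8.2% of the 61 genes, where 14.8% of all genes were. KIF3A changed by 0.38 ± 0.05 (adjusted p = 3.96e-11) in siRFX7. Inner centromere genes were lower in 15 of 16 cases, with a median of -0.81, and CENPA was again the lowest at -1.26 ± 0.07. Under the stricter null 22 genes stayed called lower (1.36% of all genes), 14 of them mitotic kinesins. None of the 9 higher ones stayed called (1.77% of all genes).

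Levels were also taken per kilobase of exon, which allows a rough comparison of genes, with the union of exons over all annotated transcripts as length. That length can exceed the length of any single transcript, which lowers the level per kb. It was 16.7 kb for KIF1A, 17.7 kb for KIF1B and 9.44 kb for CENPE, the longest among the mitotic kinesins. On this scale the mitotic kinesins had the higher median level before treatment. In siControl with DMSO their median level was 856 normalised counts per kb, from 237 (KIF4B) to 2250.2 (KIF20A), against 221 for the transport kinesins, from 41.5 (KIF21B) to 1976 (KIF5B). The levels per kb of the 15 mitotic kinesins summed to 15574 under DMSO and 8549 under Nutlin-3a in siControl, and to 15908 and 7768 in siRFX7. Those of the 17 transport kinesins summed to 7267 and 7284 in siControl and to 7851 and 7801 in siRFX7. The summed levels of mitotic and transport motors thus lay closer together under Nutlin-3a than under DMSO. The inner centromere genes went from 8594 to 5108 in siControl and from 9031 to 5189.7 in siRFX7 on the same scale. KIF20A, a midzone motor, was the highest mitotic kinesin in all 4 groups and CENPX the highest inner centromere gene.

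**Figure D2:**
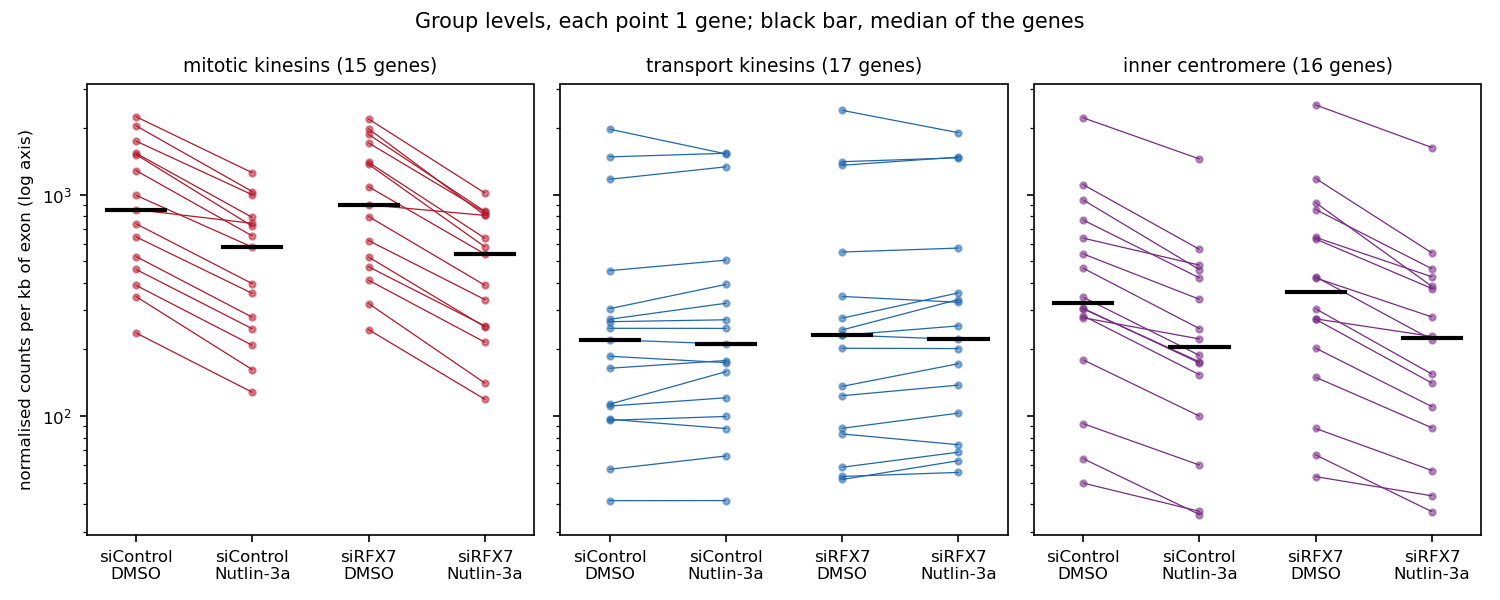
Level of each gene in the 4 groups (x axis) in normalised counts per kb of exon (log y axis), implied from the authors' tables, with lines joining DMSO and Nutlin-3a within an siRNA group and black bars at the median of the genes. The median of the mitotic kinesins goes from 856 to 579 in siControl and from 900 to 539 in siRFX7, while that of the transport kinesins stays between 212 and 232.

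The response of some mitotic kinesins was larger in siRFX7 than in siControl, and this difference was tested directly for each gene as the siRFX7 log2 fold change minus the siControl one, with the SE from both tables, a normal two-sided p and Benjamini-Hochberg adjustment over 21339 genes. Of the 61 genes 5 were called as falling further in siRFX7, where 0.764% of all genes were, and none as falling less, where 0.173% of all genes had a higher response. Without adjustment, 10 of the 61 genes had a p under 0.05, beside 1349 of all 21339 genes. Of these 10 genes 7 were mitotic kinesins. All 5 called genes were mitotic kinesins, and 13 of the 15 had a negative sign, with a median difference of -0.13 beside -0.00 over all genes. None of the 17 transport kinesins was called (median 0.04, from -0.15 for KIF17 to 0.17 for KIF16B), nor any of the 16 inner centromere genes (median -0.03).

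KIF2C showed the largest difference of the 5, at -0.35 ± 0.06 (95% interval -0.46 to -0.24, adjusted p = 2.21e-07). It went from 6364 to 3641 normalised counts in siControl and from 6821 to 3065 in siRFX7, so 57.2% was left in the one and 44.9% in the other. KIFC1 differed by -0.31 ± 0.06 (-0.42 to -0.20, adjusted p = 1.1e-05), with 50.5% left in siControl and 40.7% in siRFX7. KIF20A, which brings the chromosomal passenger complex to the midzone, differed by -0.27 ± 0.05 (adjusted p = 0.000164), with 55.8% and 46.3% left. KIF18B differed by -0.26 ± 0.07 (adjusted p = 0.0133) and KIF4A by -0.23 ± 0.06 (adjusted p = 0.00731). KIF18B and KIF4A were no longer called under the stricter null (adjusted p = 0.143 and 0.0708). Of these 5 genes KIFC1, KIF18B and KIF4A have a TTTGAA match in the promoter windows printed above, and KIF2C and KIF20A have none.

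**Figure D3:**
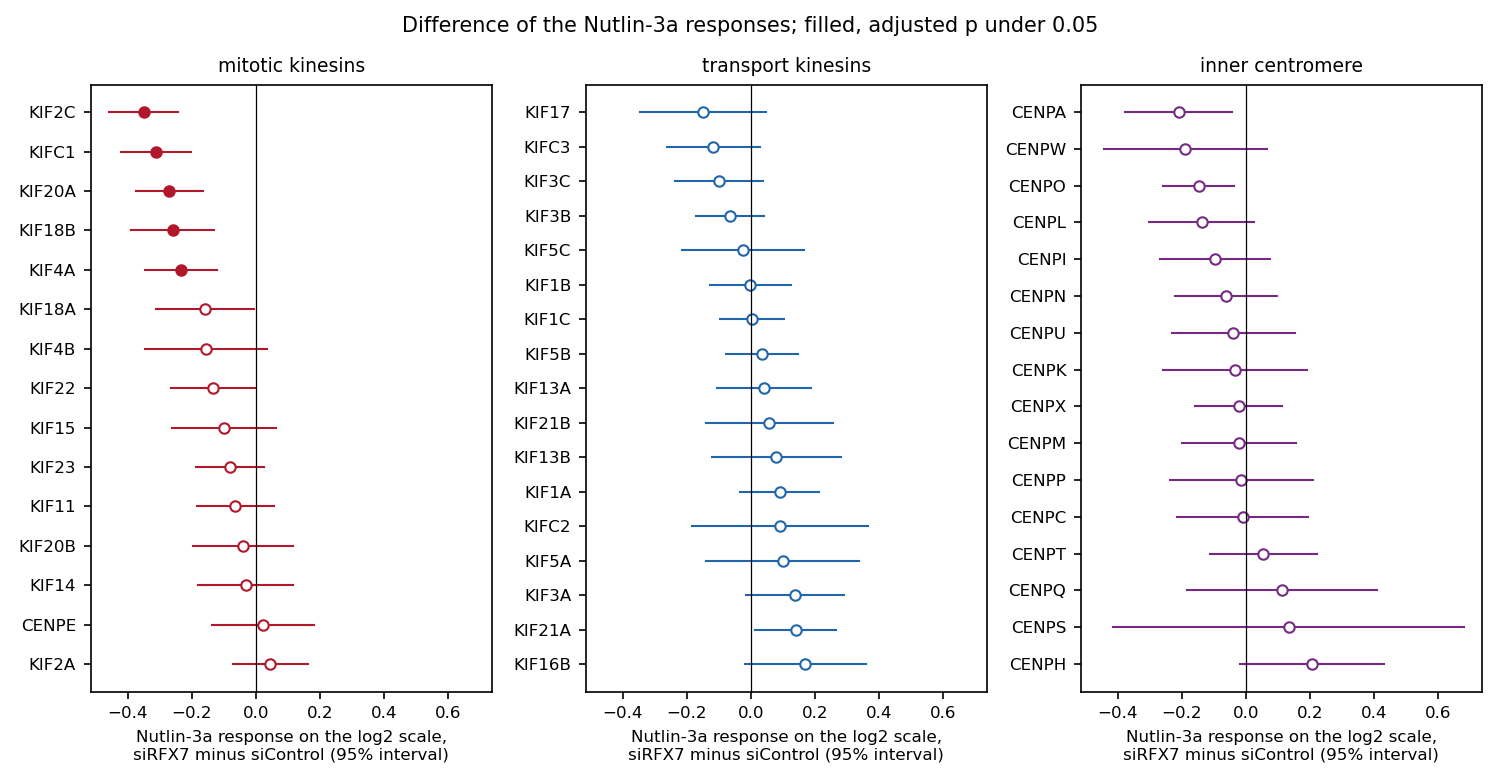
Difference of the Nutlin-3a responses, siRFX7 minus siControl, on the log2 scale (x axis, with 95% intervals), for mitotic kinesins, transport kinesins and inner centromere genes (rows). Filled points have an adjusted p under 0.05, and these are KIF2C, KIFC1, KIF20A, KIF18B and KIF4A.

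The other 10 mitotic kinesins were not called, although most fell by as much with Nutlin-3a in siControl. For KIF11 the difference was -0.06 with a 95% interval of -0.18 to 0.06, for KIF14, a midbody motor, -0.03 (-0.18 to 0.12), for KIF20B -0.04 (-0.20 to 0.12) and for CENPE 0.02 (-0.14 to 0.18). KIF18A and KIF22 had intervals just below 0 (-0.31 to -0.007 and -0.26 to -0.003) and adjusted p-values of 0.737 and 0.771. CENPA had the lowest difference of the inner centromere genes, at -0.21 (-0.38 to -0.04, adjusted p = 0.453), followed by CENPW at -0.19 (-0.44 to 0.06). CENPH had the highest of all 61 genes, at 0.21 (-0.02 to 0.43, adjusted p = 0.868).

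siRFX7 on its own gave smaller and mixed changes. Under DMSO the authors' deposited table called 12 of the 61 genes lower, where 17.5% of 19511 genes were lower, and 21 higher, where 19.9% were higher. Under Nutlin-3a it called 16 lower, where 15.4% of 20335 genes were lower, and 11 higher, where 17.2% were higher. Under the stricter null, CENPQ and KIF5A stayed called lower under DMSO and CENPQ and CENPVL3 under Nutlin-3a, and none of the 21 and 11 higher calls stayed. Over all genes this null left 0.651% lower and 0.712% higher under DMSO, and 0.792% each way under Nutlin-3a. At such shares few or no calls would be met among 61 genes. The medians of the mitotic kinesins were 0.07 under DMSO and -0.10 under Nutlin-3a, those of the transport kinesins 0.02 and 0.07, and those of the inner centromere genes 0.07 and 0.02, beside -0.00 and -0.01 over all genes. These 2 siRFX7 comparisons share no library, but their difference is the same quantity as the difference of responses above.

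Mitotic kinesins were called higher with siRFX7 under DMSO in 5 of 15 cases and lower in 2. Under Nutlin-3a they were lower in 6 and higher in 1. Over all genes 19.9% were higher and 17.5% lower under DMSO, and 15.4% were lower and 17.2% higher under Nutlin-3a. Of the 17 transport kinesins 7 were higher and 5 lower under DMSO, and 7 were higher and 4 lower under Nutlin-3a. Under the stricter null no mitotic kinesin stayed called in either comparison, where between 0.651% and 0.792% of all genes were called in each direction. KIF18A (0.19 ± 0.04), KIF23 (0.15 ± 0.03), KIF4A (0.13 ± 0.04), KIF22 (0.11 ± 0.04) and KIF2C (0.10 ± 0.04) were the higher ones under DMSO in the authors' deposited table, and CENPE (-0.15 ± 0.05) and KIF11 (-0.12 ± 0.04) the lower ones. Under Nutlin-3a, KIFC1 (-0.35 ± 0.04, adjusted p = 3.2e-15), KIF20A (-0.30 ± 0.04, adjusted p = 9.19e-14), KIF2C (-0.25 ± 0.04), KIF15 (-0.20 ± 0.07), KIF11 (-0.18 ± 0.04) and KIF18B (-0.16 ± 0.05) were lower, and KIF2A (0.12 ± 0.04) was higher. KIF2C was thus the one gene of the 61 called higher with siRFX7 under DMSO and called lower under Nutlin-3a. Other genes had the same signs without both calls. Among them were KIF4A (-0.10 ± 0.04 under Nutlin-3a, adjusted p = 0.0565) and KIF18B (0.09 ± 0.05 under DMSO, adjusted p = 0.121). KIF11 was the one mitotic kinesin lower under both.

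The lowest siRFX7 values under both treatments were those of CENPQ, CENPVL3, KIF5A and KIF27, and for none of these 4 genes was the difference between the treatments called. Of the 61 genes 9 were lower under both treatments, which is 9 of the 12 lower under DMSO and 9 of the 16 lower under Nutlin-3a. They make up 14.8% of the 61 genes, and 11.9% of all genes in both tables were lower under both. They were KIF11, KIF13A, KIF5A, KIF5C, KIFC2, KIF27, CENPL, CENPQ and CENPVL3. Another 8 were higher under both, out of 21 and 11, which is 13.1% of the 61 genes beside 14.2% of all genes: KIF1A, KIF21B, KIF3B, KIF3C, KIF5B, KIFC3, CENPH and CENPX. The 3 conventional kinesin heavy chains parted: KIF5B was higher by 0.28 ± 0.04 and 0.32 ± 0.04 under DMSO and Nutlin-3a, whereas KIF5C was lower (-0.22 ± 0.07 and -0.24 ± 0.07), as was KIF5A (-0.92 ± 0.08 and -0.82 ± 0.09), in the authors' deposited tables. In levels, KIF5A, the neuronal form, went from 695 to 368 normalised counts under DMSO and from 757 to 430 under Nutlin-3a with siRFX7.

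CENPQ showed the lowest siRFX7 value under DMSO of the 61 genes, at -1.20 ± 0.09 (adjusted p = 2.88e-39), and -1.09 ± 0.12 under Nutlin-3a. Its implied level went from 597 to 259 normalised counts under DMSO and from 326 to 153 under Nutlin-3a with siRFX7, so that siRFX7 and Nutlin-3a each lowered it. CENPO and CENPU, its partners in the network, changed little with siRFX7 under DMSO (0.09 ± 0.04, called, and -0.13 ± 0.06, not called). CENPH was the highest, at 0.46 ± 0.08 and 0.67 ± 0.08 under the 2 treatments, while its complex partners CENPI, CENPK and CENPM lay between 0.10 and 0.18 under DMSO. CENPVL3 was lower by -1.08 ± 0.18 and -1.16 ± 0.18, but it has near-identical copies and a base mean under 144 in every table, so its value is uncertain. KIF13A, an endosomal carrier, was lower by -0.41 ± 0.05 and -0.37 ± 0.05, and KIF27 by -0.63 ± 0.13 and -0.73 ± 0.13, the latter at base means between 99.7 and 209.

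**Figure D4:**
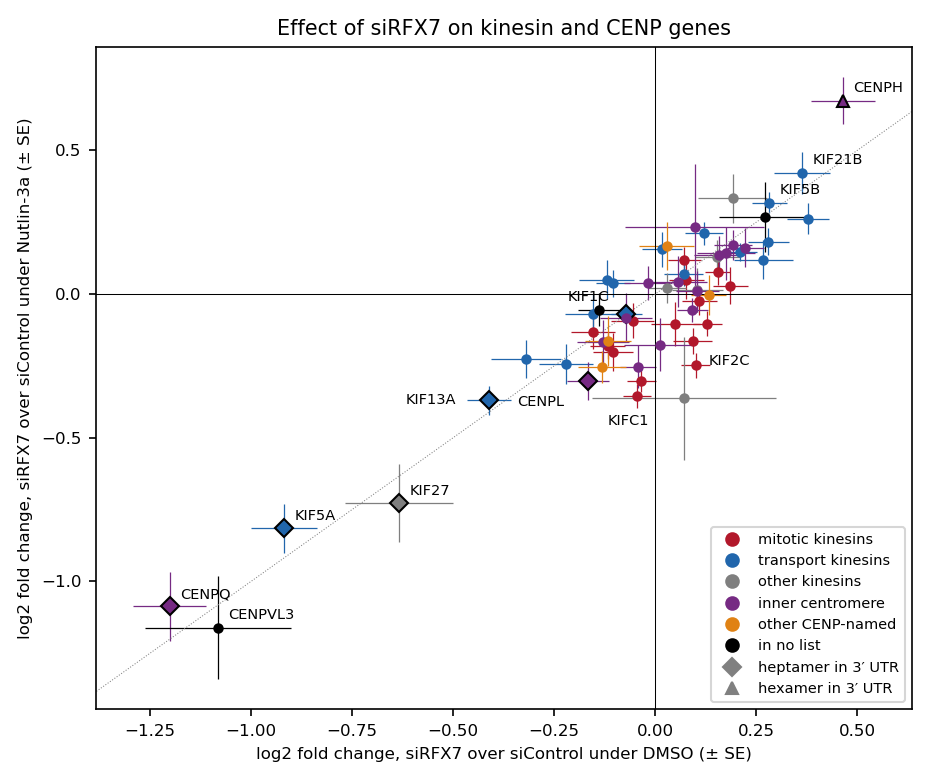
Log2 fold change of siRFX7 over siControl under DMSO (x axis) against that under Nutlin-3a (y axis), ± SE, for the 61 genes, with the line of equal effect dotted. Diamonds and triangles mark genes whose 3′ UTR holds a heptamer or hexamer named in the text, and CENPQ, CENPVL3 and KIF5A lie farthest towards lower levels, with CENPH farthest towards higher ones.

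The siRFX7 effects were read against the heptamer GTATCTA in the 3′ UTR, which had been picked in an earlier scan of these same fold changes, so its count is a description and no independent support. In GENCODE 29 annotation (GRCh38) it was in the 3′ UTR of 6 of the 61 genes (9.84%), against 8.64% of 13709 protein-coding genes. The 6 were CENPQ, KIF5A, KIF27, KIF13A, CENPL and KIF1C, with the heptamer in capitals in these sites from their transcripts, 5′ to 3′:
CENPQ: tttatattgctGTATCTAtaagtatttgcc
KIF5A: ctttgtactctGTATCTAtatatcaaaagc
KIF27: tggcttgtgaaGTATCTAtccttgacctgc
KIF13A: atatgaaatgtGTATCTAtagtatgtctgg
CENPL: tcaaatgagatGTATCTAatggatatttct
KIF1C: agtgaaaccctGTATCTAcaaaacatagaa

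The sites lie at chr6:49492490-49492519 (plus strand, CENPQ), chr12:57584346-57584375 (plus, KIF5A), chr9:83880184-83880213 (minus, KIF27), chr6:17760408-17760437 (minus, KIF13A), chr1:173799788-173799817 (minus, CENPL) and chr17:5026568-5026597 (plus, KIF1C). KIF5A has 2 matches in this 3′ UTR, and that of KIF27 belongs to a transcript that ends inside the gene. Of these 6 genes 5 were lower with siRFX7 under both treatments, with medians of -0.52 and -0.55. KIF1C, a Golgi and focal adhesion motor, was the exception, at -0.07 under both (adjusted p = 0.132 and 0.101). The 55 genes without the heptamer had medians of 0.07 and 0.02, where under DMSO 7 were lower and 21 higher and under Nutlin-3a 11 went each way. Over all 1185 protein-coding genes with it, the medians were -0.14 and -0.10, with 505 and 443 called lower and 156 and 180 called higher. Over the 12524 without it the medians were 0.02 and 0.02, with 2185 and 1999 called lower and 3117 and 2843 called higher. No mitotic kinesin holds the heptamer. A hexamer from the same scan, GACGTA, was in 1 of the 61 3′ UTRs (1.64%, against 5.33%), that of CENPH, which was higher with siRFX7. Whether these sites had a part in the siRFX7 effects, as opposed to loss of RFX7, was not tested.

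Known partners of these proteins were read from lists by role, in the authors' deposited tables. All 20 kinetochore and CENPA-loading genes were lower with Nutlin-3a in both siRNA groups, and their medians were -0.89 (siControl) and -0.97 (siRFX7). They ranged in siControl from -1.14 for SPC24, a subunit of the NDC80 complex, to -0.24 for NSL1, a subunit of the MIS12 complex. HJURP, the chaperone that deposits CENPA, had the lowest value in siRFX7, at -1.21 ± 0.06. All 12 genes of the spindle midzone and chromosomal passenger complex were lower in both siRNA groups too, with medians of -0.86 and -1.002. Of the 11 light chains and cargo adaptors of transport kinesins, 2 were lower and 4 higher in siControl, and 3 were lower and 3 higher in siRFX7. Over all genes, 19.6% were lower and 18.3% higher in siControl, and 20.3% and 18.7% in siRFX7. The 4 of 11 higher in siControl lie above that share, on a short list. KIFAP3, the adaptor of the KIF3 motor, was higher by 0.32 ± 0.06 and 0.42 ± 0.07.

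The difference of responses was also called for some of these partners. CDCA8 (-0.33, adjusted p = 0.000176) and INCENP (-0.30, adjusted p = 0.000957), both chromosomal passenger subunits that work with KIF20A, fell further in siRFX7, as did TPX2, a spindle assembly factor (-0.20, adjusted p = 0.0236). HJURP (-0.28, adjusted p = 0.017) and the checkpoint kinase BUB1B (-0.21, adjusted p = 0.0264) were the 2 kinetochore genes called. None of the 11 light chains and adaptors was called. With siRFX7 alone, MIS12 was lower under both treatments (-0.50 ± 0.07 and -0.63 ± 0.08), and the midbody kinase CIT was higher (0.68 ± 0.05 and 0.60 ± 0.05).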

How the data were processed

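Per the submitters' processing notes, the tools included bcl2fastq 2.19.1.403, Trimmomatic 0.39, FastQC 0.11.9, cutadapt 2.10, SAMtools 1.10, Picard, featureCounts 1.6.5 and DESeq2 1.20.0, with build hg38. The aligner and the annotation are not given in the sources used here. Libraries came from a stranded poly(A) kit, per the labels' protocols. The authors deposited 4 tables of 2 groups each, assigned to groups by the sample titles, without values of single libraries. Per the file headers, each deposited table holds a base mean (a signal, the mean normalised count), a log2 fold change with its SE, a Wald statistic (a score), a p-value and an adjusted p-value. The deposited log2 fold change divided by its SE gave the Wald statistic within 1.85e-13. Benjamini-Hochberg adjustment over a table returned the adjusted p-values the authors deposited, within 1.5e-15.

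From these, group levels, levels per kb of exon (GENCODE 29) and differences of responses were computed with Python 3.11.15, pandas 2.3.3, numpy 2.4.6 and scipy 1.17.1, after tests on simulated data. Levels of a group implied by different tables were first brought together by 1 scale factor per group, between 0.846 and 1.18. After that they differed by at most 1.36% in any of the 61 genes (CENPVL3). siRFX7 levels were placed on the siControl scale. Difference p-values came from a normal two-sided test. In each list and comparison, up to 5 of the lowest and 5 of the highest called genes were given in full, along with genes whose role needed a value. Members, lists and motifs were chosen with earlier results of these data known. Alternatives covered the adjusted p threshold, a minimum change, a base mean minimum of 100, centring on the median, a stricter SE, the set of genes adjusted over, and the membership of the kinesin lists.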

Additional observations from a re-analysis of the deposited data

Results flagged for a closer look

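The response to Nutlin-3a differed between siRFX7 and siControl by the test of the difference itself in 5 mitotic kinesins, all with the larger fall in siRFX7: KIF2C (-0.35 on the log2 scale), KIFC1 (-0.31), KIF20A (-0.27), KIF18B (-0.26) and KIF4A (-0.23).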

How the results depend on the processing

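No paired analysis was possible because the deposited tables hold no value of a single library, and for the same reason no library could be left out. No mitotic minus transport median changed sign. Of 30 alternative counts of called genes 22 stayed within 1.5 times the main count, and of 20 alternatives for the mitotic minus transport median 18 moved by less than the median SE of the genes in both lists. For siRFX7 under DMSO that limit says little, because the main value of 0.055 was near the median SE of 0.049. There it fell to 0.019 with KIF2A counted among the transport kinesins and to 0.012 with a mean weighted by the SE. Dividing the test statistic by its robust SD over genes of like base mean, which true changes widen, reduced the called genes from 47 to 20 for Nutlin-3a in siControl, from 47 to 22 in siRFX7, from 33 to 2 for siRFX7 under DMSO, from 27 to 2 under Nutlin-3a and from 5 to 3 for the difference of responses. No higher call was left under it in any of these comparisons. For siRFX7 under DMSO the counts went from 12 lower and 21 higher to 2 lower and 0 higher. Over all genes this null called 1.21% lower and 2.24% higher for Nutlin-3a in siControl, and 1.36% and 1.77% in siRFX7. For siRFX7 it called 0.651% and 0.712% under DMSO and 0.792% each way under Nutlin-3a. For the difference of responses it called 0.544% and 0.122%. At such shares the lack of higher calls among 61 genes is no result about these genes. For siRFX7 under DMSO an adjusted p under 0.01 left 21 genes, and a log2 change of at least 0.25 left 13, as it left 15 under Nutlin-3a. A mean weighted by the SE moved the mitotic minus transport value from -0.96 to -0.89 in siControl and from -1.17 to -1.09 in siRFX7, still in the same direction. Low counts limit CENPS, CENPVL3, KIF6 and KIF27.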
